A study of Drosophila melanogaster with 3 samples.

Results

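The insulin and TOR growth pathway genes examined here were InR, chico, Pi3K92E, Tsc1, gig, S6k, foxo and Thor, 8 of 13945 annotated protein-coding genes. They were chosen by name, with earlier results of these data known, and no measured value entered the rule. Binding was measured by chromatin immunoprecipitation followed by sequencing (ChIP-seq) in whole Drosophila melanogaster prepupae, both sexes pooled. The animals came from a transgenic line that stably expressed the zinc finger protein CG6808 (annotated as Zaf1) with GFP at its C terminus, precipitated with an antibody to GFP. There was 1 group with 3 biological replicates, each from that line, so values are described without a test between conditions, and samples without the tagged protein were not analysed here. The labels do not say whether the untagged protein was still present. Their antibody field names CG6808 and their age field gives 24 days, which is unusual for prepupae. Whole animals mix all tissues, so binding cannot be placed in a cell type, and RNA was not measured.

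Insulin-like peptides activate the receptor InR, which signals through the adaptor chico to phosphoinositide 3-kinase (PI3K) and the kinase Akt. Akt keeps the transcription factor foxo out of the nucleus and relieves the block that the tuberous sclerosis complex of Tsc1 and gig (Tsc2) puts on the TOR kinase, which in turn activates S6k and inhibits Thor, the fly 4E-BP. In flies, foxo activates transcription of both InR and Thor when insulin signalling is low, and the pathway sets larval growth up to the end of feeding, before the prepupal stage.

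The list that the authors filtered by the irreproducible discovery rate (IDR list) had 8091 regions, those of highest signal among the pooled replicates, and the list from pooled replicates and each replicate list held 30000. Signal is the authors' height of a region over 1 control alignment, and it has no common scale between lists. It ran from 152 to 24704 in the IDR list, with a median of 285. Replicate 1 had a median of 160 among its 8091 strongest regions, replicate 2 one of 69.5 and replicate 3 one of 70.3, so replicate signals are also given relative to these medians. Read depth is unknown. A summit was counted at a promoter within 500 bp of any annotated start site of the gene, and in the gene body between the gene's ends but farther from its starts. Offsets run along the gene's strand, negative upstream, and coordinates are dm6.

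The 8 genes fell into 2 sets, 4 with promoter summits in the IDR list and 4 with no summit in either the IDR or the pooled list. InR, S6k, foxo and Thor had an IDR summit at a promoter, 4 of 8 genes, where 18.1% of all protein-coding genes had one. In the stronger 50% of the IDR list the count was 1 of 8 (12.5%, InR alone), beside 10.6% of all genes. The difference from all genes in promoter summits thus rested on regions of lower signal. InR, S6k and foxo also had IDR summits in the gene body, 3 of 8, beside 10.5% of all genes. These 3 genes kept a body summit in the stronger 50% of the list, where the share of all genes was not counted. Without that share, the body count there cannot be set against the promoter count. In the pooled list the same 4 genes had a promoter summit, 4 of 8 beside 32.2%. Chico, Pi3K92E, Tsc1 and gig had no pooled summit at the promoter or in the body, 4 of 8 beside 62.4%.

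Gene length and the number of start sites move with these counts. Among genes under 5 kb, Thor but not chico or Tsc1 had a promoter summit, 1 of 3, beside 13.0% of all genes of that length, and 0 of 3 had a body summit, beside 1.88%. Among genes of 5 to 20 kb, S6k but not Pi3K92E or gig had a promoter summit, 1 of 3 beside 30.8%, and a body summit, 1 of 3 beside 27.2%. InR and foxo, both over 20 kb, had promoter summits, 2 of 2 beside 39.7%, and body summits, 2 of 2 beside 58.9%. The 3 genes with more than 1 start site, InR, foxo and Thor, all had a promoter summit, where 35.4% of such genes did. Of the 5 genes with 1 start site only S6k had one, 1 of 5 beside 11.8%. The part of length and start sites in the promoter counts was not tested.

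The receptor gene InR (FBgn0283499, 3R, 21570248 to 21619321, minus strand) carried 12 IDR summits over 49074 bp, 2 at promoters and 10 in introns. Of all protein-coding genes, 99.6% had fewer. Among the 1013 genes over 20 kb, 94.1% had fewer and 92.6% had a lower density than the 0.245 summits per kb of InR. The 231 genes of 40 to 60 kb had a median of 2 summits, and 10 of them had more than InR. The pooled list held 34 summits at InR. The 22 that were below the IDR list had signals of 38.6 to 149, and 5 of them were matched in all 3 replicates.

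The strongest InR summit was intronic, in the region chr3R:21605246-21605696 with its summit at 21605427, which is 13894 bp downstream of the first base of the gene. Its signal of 1873 ranked 202 in the IDR list. The replicate signals were 1063 in replicate 1, 390 in replicate 2 and 410 in replicate 3, at ranks 179, 274 and 225 in the same order, or 6.04 ± 0.553 times the replicate median (SD, n = 3). It was thus at rank 274 or better in every replicate. Across the 1467 protein-coding genes with a body summit, 95.4% had a lower strongest body signal than InR, with a median of 422. The sequence within 100 bp of this summit (dm6, chr3R:21605327-21605527, minus strand) is shown because it is the strongest binding at any of the 8 genes. In every sequence printed, capitals mark any of 3 motifs on either strand. The first is CACTG, whose reverse complement reads CAGTG. The second, the GAGA motif, is GAGAG or in reverse complement CTCTC. The last, a forkhead motif, is GTAAACA, and its reverse complement reads TGTTTAC.

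InR intron summit: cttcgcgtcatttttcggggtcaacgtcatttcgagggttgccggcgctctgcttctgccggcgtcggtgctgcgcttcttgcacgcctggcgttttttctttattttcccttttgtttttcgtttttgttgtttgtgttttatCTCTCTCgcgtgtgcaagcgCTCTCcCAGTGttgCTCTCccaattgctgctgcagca

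A neighbouring summit 211 bp away in the same region had a signal of 612, with replicate signals of 375, 112 and 144 in replicates 1, 2 and 3. Another intronic summit, at 21599814, had a signal of 657 and rank 1423, with ranks of 1430, 2083 and 1239 in replicates 1, 2 and 3. These 3 were the highest at the gene. A summit 656 bp downstream of the start at 21619036 had a signal of 451, and the other 6 intronic summits had signals of 176 to 333. The summit at 21615327, with a signal of 189, also lay in an exon of the noncoding gene lncRNA:CR44034, 413 bp from its start, and had no match in replicate 2.

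The promoter summits of InR lay at its internal start sites. The higher, at 21592089, was 32 bp downstream of the start at 21592121, in the annotated 5′ UTR and 27232 bp from the first base of the gene. Its signal was 327 in the IDR list (rank 3431) and 178, 75.2 and 80.0 in replicates 1, 2 and 3, or 1.11 ± 0.0285 times the replicate median (SD, n = 3). This higher summit was also within 500 bp of a start of the noncoding gene lncRNA:Irar. That start was 61 bp from a summit at 21592289 found in the pooled list only, with a signal of 120. The other, at 21590091, was 100 bp downstream of the start at 21590191, with a signal of 212 (rank 5660) and 119, 47.9 and 57.7 in replicates 1, 2 and 3. In every replicate the higher summit was slightly above the median of the 8091 strongest regions, and the other was below it. At the first start, 21619321, there was a summit at an offset of 24 bp with a signal of 146, rank 8434 in the pooled list and so just below the IDR list. It had signals of 71.0 in replicate 1 and 63.4 in replicate 3 and no match in replicate 2. An IDR summit with a signal of 481 lay 602 bp upstream of that start, just outside the promoter window, and was matched in all 3 replicates with signals of 307, 103 and 91.8.

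The 3 other genes whose promoter summit was most like that of InR, by the summed absolute difference in log2 rank over the 3 replicates among 1971 genes, were DNaseII and Teh4 (0.09 each) and Kdm5 (0.10). Their signals were 347, 351 and 343 in the same order. This likeness is of ranks alone.

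**Figure D1:**
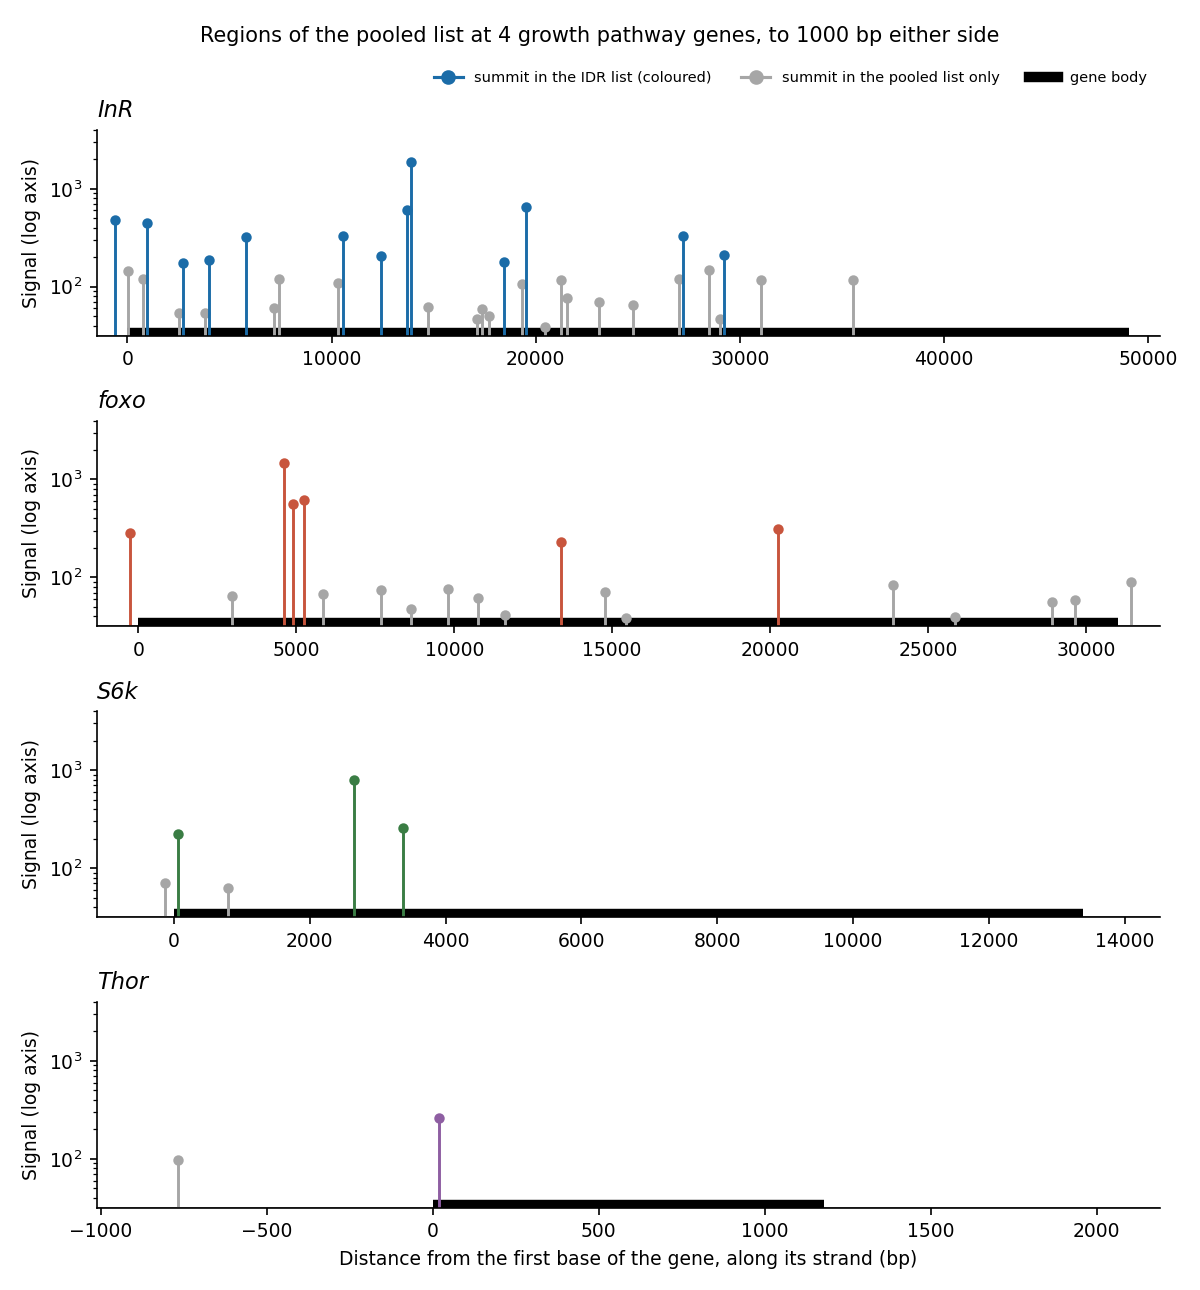
Signal (log axis) of every pooled-list summit at InR, foxo, S6k and Thor, by distance in bp from the first base of the gene along its strand, coloured where the summit was in the IDR list and grey where it was in the pooled list only. The highest stems of InR (1873), foxo (1478) and S6k (787) stand inside the gene body, and Thor has 1 coloured stem, at its start.

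The adaptor gene chico (FBgn0024248, 2L, 10242512 to 10247078, minus strand), which couples the receptor to PI3K, had no summit in the IDR, pooled or replicate lists at its promoter or in its body. The nearest IDR summit was 15806 bp from its start, near ova. Its start-site sequence upstream of the transcript (dm6, chr2L:10247079-10247178, minus strand) is shown as a promoter without a region in any list.

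chico start: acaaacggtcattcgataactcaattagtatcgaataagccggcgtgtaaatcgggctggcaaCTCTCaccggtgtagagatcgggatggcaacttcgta

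Pi3K92E (FBgn0015279, 3R, 20628972 to 20634732, minus strand) encodes the catalytic subunit of PI3K. It had a promoter region in replicate 2 alone, at an offset of 22 bp with a signal of 29.9 and rank 10631 in that list. Replicates 2 and 3 had further regions upstream, at offsets of -827 and -775 bp outside the promoter window, with signals of 26.7 and 22.4. None of these was in the pooled list, whose nearest summit was 29060 bp away, and the nearest IDR summit was 40060 bp away.

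The genes of the tuberous sclerosis complex, which restrains TOR, had no region at promoter or body in any of the 5 lists. For Tsc1 (FBgn0026317, 3R, 24130307 to 24134654, plus strand) the nearest IDR summit was 10924 bp from the start, near Kal1. For gig (FBgn0005198, 3L, 20129181 to 20139010, plus strand) it was 39119 bp away, and the nearest pooled summit was 3010 bp away. A region missing from a list says only that no call was made at an unknown depth.

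S6k (FBgn0283472, 3L, 5797549 to 5810931, minus strand), the kinase that TOR activates to promote translation and growth, had 3 IDR summits in 13383 bp. Of the 2471 genes of 5 to 20 kb, 88.5% had fewer. The strongest lay in an intron, 2643 bp downstream of the single start, in chr3L:5808060-5808432. Its signal was 787 (rank 1093) in the IDR list and 404, 218 and 173 in replicates 1, 2 and 3, at ranks 1174, 888 and 1235, or 2.71 ± 0.374 times the replicate median (SD, n = 3). Among genes with a body summit, 73.3% had a lower strongest one. The second intronic summit, 3373 bp from the start, had a signal of 257 and 136, 68.0 and 70.1 in replicates 1, 2 and 3. The promoter summit was 60 bp downstream of the start, in the 5′ UTR, with a signal of 221 (rank 5413) and 120, 44.7 and 79.9 in replicates 1, 2 and 3. It also lay 102 bp from a start of kri, a gene on the opposite strand, and was a promoter summit of both genes. The intronic summit of signal 787 was the stronger in each replicate.

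The strong and the weaker intronic S6k windows are shown together, since letters searched for are found only in the weaker (dm6, chr3L:5808188-5808388 and chr3L:5807458-5807658, minus strand).
S6k intron summit, signal 787: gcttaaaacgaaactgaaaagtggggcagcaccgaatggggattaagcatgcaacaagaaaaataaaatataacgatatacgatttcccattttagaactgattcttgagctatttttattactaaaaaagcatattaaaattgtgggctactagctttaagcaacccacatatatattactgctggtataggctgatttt
S6k intron summit, signal 257: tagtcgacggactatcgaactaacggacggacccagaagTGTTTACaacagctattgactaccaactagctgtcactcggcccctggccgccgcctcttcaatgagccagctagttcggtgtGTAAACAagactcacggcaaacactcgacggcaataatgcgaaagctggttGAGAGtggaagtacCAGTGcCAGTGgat

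The gene foxo (FBgn0038197, 3R, 14056945 to 14087978, plus strand), whose product is the transcription factor held back by insulin signalling, had 6 IDR summits in 31034 bp, 1 at the promoter and 5 in introns. More than 20 kb long, it had more summits than 78.5% of genes in that class, and the 349 genes of 25 to 40 kb had a median of 1. A cluster of 3 intronic summits lay 3645, 3935 and 4283 bp downstream of the start at 14057919, with signals of 1478, 559 and 624. The first, in chr3R:14061311-14061823, ranked 334 in the IDR list. Its replicate signals were 770, 319 and 416 in replicates 1, 2 and 3, at ranks 352, 422 and 219, or 5.11 ± 0.711 times the replicate median (SD, n = 3). Of genes with a body summit, 91.2% had a lower strongest one. The middle summit, at 14061854, had no match in replicate 2. The regions of all 3 summits of the cluster overlapped, and those of the 2 weaker ones shared an end. The remaining intronic summits, 12397 and 19287 bp from that start, had signals of 228 and 311.

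The foxo promoter summit was 281 bp upstream of the first start, outside any annotated gene. Its signal was 282 in the IDR list (rank 4105) and 145, 81.9 and 53.6 in replicates 1, 2 and 3, or 0.949 ± 0.211 times the replicate median (SD, n = 3). Replicate 2 was above its own median and replicates 1 and 3 were below theirs, while the first intronic summit was far above it in all 3. In the pooled list, 13 further foxo summits had signals of 38.6 to 84.1, 1 of them matched in all 3 replicates. The sequences of the strongest intronic and the promoter window are shown to set the 2 places side by side (dm6, chr3R:14061464-14061664 and chr3R:14056564-14056764, plus strand).
foxo intron summit: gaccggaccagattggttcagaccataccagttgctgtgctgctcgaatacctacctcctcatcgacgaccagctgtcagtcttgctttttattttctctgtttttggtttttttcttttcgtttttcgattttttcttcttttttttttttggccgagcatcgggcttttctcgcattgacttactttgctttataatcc
foxo promoter summit: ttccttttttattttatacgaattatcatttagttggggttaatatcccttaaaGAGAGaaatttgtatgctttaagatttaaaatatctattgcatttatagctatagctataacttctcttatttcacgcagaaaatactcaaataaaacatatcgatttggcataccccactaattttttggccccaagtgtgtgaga

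Thor (FBgn0261560, 2L, 3478434 to 3479612, plus strand), the translational repressor that TOR inhibits and foxo activates, had 1 summit in the IDR and the pooled list, 20 bp downstream of its first start in the 5′ UTR. Its signal was 259 (rank 4529) in the IDR list. The replicate signals were 108, 79.4 and 43.1 in replicates 1, 2 and 3, at ranks 6468, 3410 and 7329, or 0.811 ± 0.288 times the replicate median (SD, n = 3). Replicate 2 was the highest relative to its own list. Further promoter regions without a match in the pooled list were present in replicate 2 (offset 133 bp, signal 28.2) and replicate 3 (offset -223 bp, signal 47.8). With 1 summit in 1179 bp, Thor exceeded 86.0% of the 10461 genes under 5 kb, which had none. The upstream stretch of its window (dm6, chr2L:3478354-3478433, plus strand) is shown without the transcribed bases and holds a run of GAGAG letters.

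Thor promoter: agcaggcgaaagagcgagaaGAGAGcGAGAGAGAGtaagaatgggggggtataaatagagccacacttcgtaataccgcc

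At the bound promoters the signal was ordinary among bound genes. Of the 2519 genes with an IDR promoter summit, whose median highest promoter signal was 335, InR (327) was above 48.6%, foxo (282) above 40.5%, Thor (259) above 35.6% and S6k (221) above 25.8%. In relative signal these 4 promoters were 1.11 ± 0.0285 at InR, 0.949 ± 0.211 at foxo, 0.845 ± 0.259 at S6k and 0.811 ± 0.288 at Thor (SD, n = 3 each). Neighbours in this order differed by less than the larger of their 2 SDs. The difference between InR and foxo was, however, larger than the SD of InR. Promoter summits of the 8 genes had signals of 212 to 327 (median 259, n = 5 summits), and intronic ones 176 to 1873 (median 333, n = 17 summits). The 2 ranges overlap, but the strongest summit of InR, foxo and S6k was in an intron in each case. Body signals were also the higher over all genes. The median strongest body signal was 422 (n = 1467 genes), beside the median highest promoter signal of 335 (n = 2519 genes). The part of the number of summits in each place was not tested.

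**Figure D2:**
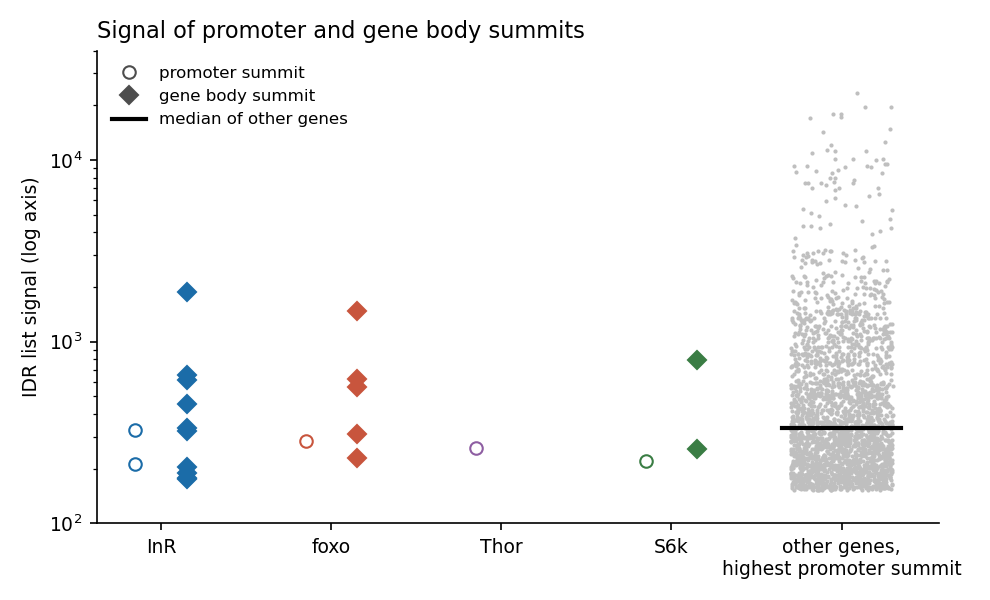
IDR-list signal (log axis) of each promoter summit (open circles) and gene body summit (diamonds) of InR, foxo, Thor and S6k, with the highest promoter summit of every other gene that had one (grey points, black line at their median). Promoter summits of the 4 genes lie between 212 and 327, and the body summits of InR, foxo and S6k reach 1873, 1478 and 787.

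Of the 22 IDR summits at these genes, 20 had a summit within 100 bp in all 3 replicate lists, beside 82.4% of all IDR summits. Within 50 bp, 12 of 22 were matched in all 3 (54.5%), beside 55.9% of all IDR summits. Among the promoter summits only that of Thor was so matched. At the InR promoter summit at 21592089, the summits of replicates 2 and 3 lay 81 and 63 bp farther upstream. At the S6k promoter, that of replicate 1 lay 90 bp downstream and that of replicate 2 lay 88 bp upstream. The promoter offsets given are therefore those of the IDR list and not of each replicate. The 2 without a match in all 3 within 100 bp, at InR and foxo, lacked one in replicate 2 only. Signals above the IDR median were found at 12 of the 22. The InR promoter summit at 21592089 had close ranks of 3545, 3660 and 3468 in replicates 1, 2 and 3, as had the foxo intronic summit at 14070316, with 5510, 5326 and 5695. Among the 20, ranks were widest apart for the InR intronic summit at 21606907, with a signal of 205, which ranked 4601, 11559 and 5062.

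**Figure D3:**
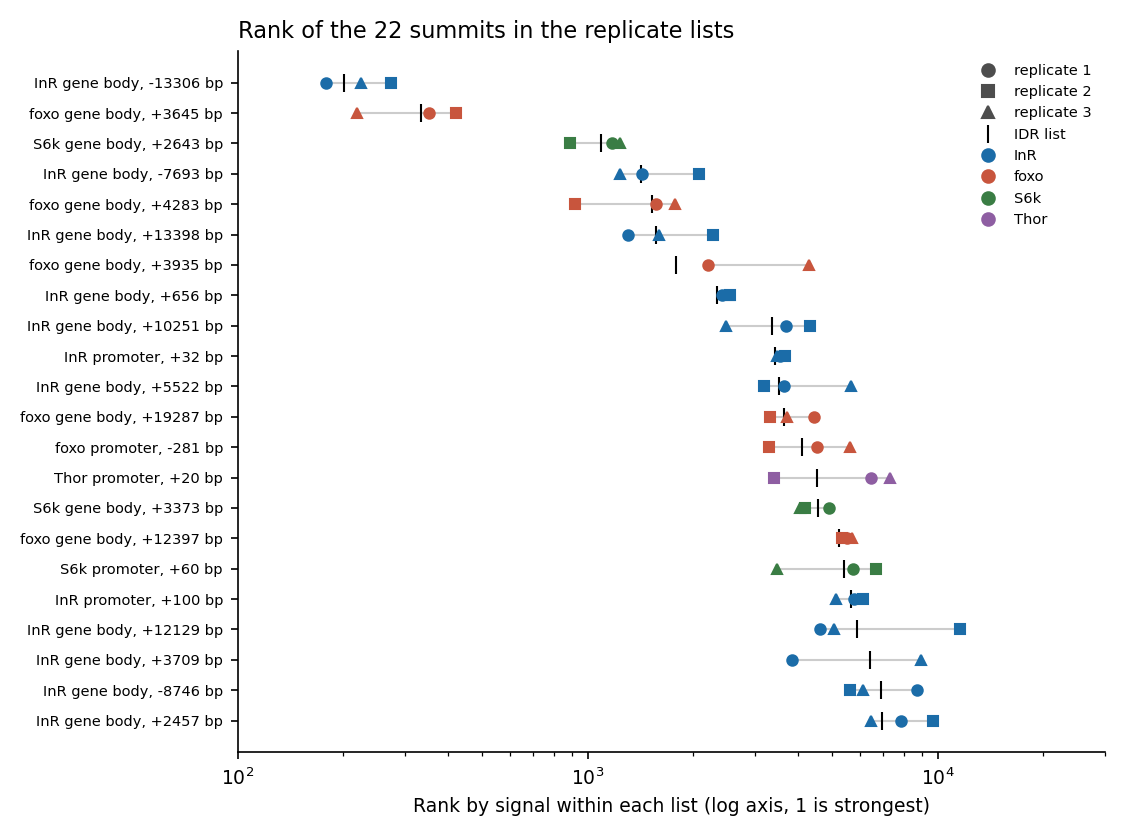
Rank by signal (log axis, 1 is strongest) of the 22 IDR summits of InR, foxo, S6k and Thor in replicate 1 (circles), replicate 2 (squares), replicate 3 (triangles) and the IDR list (black bars), 1 summit per line, named by gene, place and offset from the nearest start of the gene. The InR and foxo summits of signals 1873 and 1478 rank between 179 and 422 in every replicate, and 2 lines lack a square because replicate 2 had no match.

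**Figure D4:**
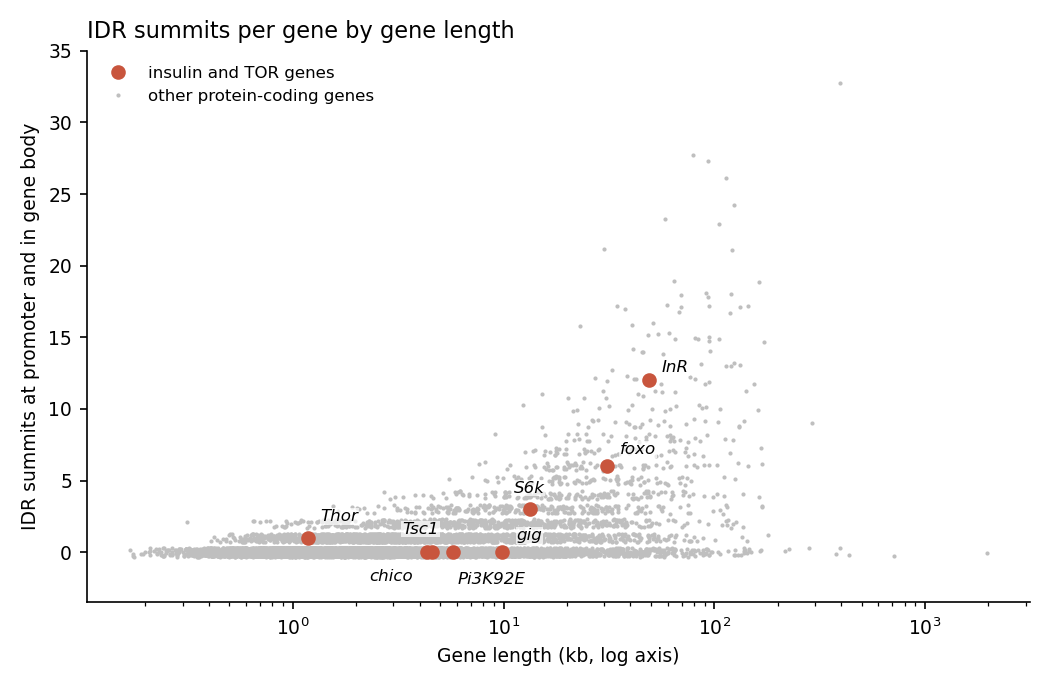
Number of IDR summits at the promoter and in the body of each protein-coding gene against gene length in kb (log axis), with the 8 insulin and TOR genes in red and all others in grey, shifted slightly up or down so that points do not hide each other. InR (12), foxo (6), S6k (3) and Thor (1) lie above many genes of their length, and chico, Tsc1, Pi3K92E and gig lie at 0.

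Short sequence motifs were searched on both strands within 100 bp of each summit as a description of letters and not of sites. CACTG was present in 10 of 22 windows (45.5%), beside 43.4% of all IDR windows and 36.9% of windows at all start sites. Within 50 bp of the summit it was present in 4 of 22 (18.2%), beside 20.2% of IDR windows and 23.1% of start-site windows, so the order turned round. GTAAACA, the letters to which forkhead factors such as foxo bind, was present in 3 of 22 (13.6%), beside 4.96% of IDR windows and 6.12% of start-site windows. GAGAG, the letters bound by GAGA factor, was present in 11 of 22, beside 27.9% of IDR windows and 4812 of 19252 start-site windows, with overlapping copies in a run counted as 1 window. TATCGATA, the DNA replication-related element, was present in none of 22, beside 1.26% and 6.45%. Windows at the 8 genes had a median GC content of 45.0% (29.4 to 56.7%), against 37.3% over all IDR windows, and the part of base composition in these shares was not tested.

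The GTAAACA letters lay at the InR promoter summit at 21590091, centred 129 bp downstream of the start at 21590191, at Thor, centred 98 bp downstream of the first start, and as 2 copies in the weaker S6k intronic window printed above. The 2 strongest summits, of InR and foxo, had none. CACTG was present once at the InR intronic summit of signal 1873, centred 72 bp from it, and absent from the strongest windows of foxo, S6k and Thor. Within 150 bp of the 22 summits there were 20 copies, 14 of them oriented so that CACTG upstream or CAGTG downstream faced the summit, beside 3989 of 7254 copies at all IDR summits. The genes differed, with 9 of 11 copies facing the summit at InR, 2 of 6 at foxo and 3 of 3 at S6k.

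Other genes of the pathway were counted from a list of 54, arranged by role and likewise written with earlier results known. An IDR promoter summit was present at 22 of 54 (40.7%), beside the 18.1% of all genes, a further 4 had a body summit only, and 28 had neither. The list holds more long genes, with 7 of 54 over 20 kb beside 1013 of 13945, and more genes with several starts, with 20 of 54 beside 3699 of 13945. Within classes it had 27.6% beside 13.0% under 5 kb, 9 of 18 beside 30.8% at 5 to 20 kb and 71.4% beside 39.7% over 20 kb. With 1 start site it had 23.5% beside 11.8%, and with more than 1 it had 70.0% beside 35.4%. The signals of the 22 ran from 158 to 4340 with a median of 370. Of these, 17 were matched in all 3 replicates, beside 82.4% of all IDR summits.

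Of 8 ligand genes only Ilp6, the insulin-like peptide of the fat body, had a promoter summit (375), and Ilp1, Ilp2, Ilp3, Ilp4, Ilp5, Ilp7 and Ilp8 had no IDR summit. Both secreted proteins that bind insulin-like peptides had one, ImpL2 (192, with an intragenic summit of 2590 at rank 115) and Sdr (398). Both adaptor genes had one, Lnk (420) and dock (312). Unlike chico, these 4 genes thus had regions at their starts. The summits of ImpL2 and Lnk had no match in replicate 2, and that of dock had none in replicate 3.

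Among genes that act with PI3K and Akt, promoter summits were present at Pi3K21B (583), the regulatory partner of the Pi3K92E protein, at Susi (741), an inhibitor of PI3K, at Pdk1 (327), the kinase that phosphorylates Akt, and at step (158), a cytohesin. The nearest start to the Pdk1 summit was that of lncRNA:CR45805. The step summit was near the lowest signal of the IDR list, 152, and was matched in replicate 1 only, at rank 10593. Akt had a body summit only (296). The 2 PI3K subunit genes therefore differed, Pi3K92E with no pooled region and Pi3K21B with ranks of 1845, 2461 and 1361 in replicates 1, 2 and 3.

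In the group of TSC and Rheb, scyl (303) and chrb (317), which encode inhibitors of TOR signalling, had promoter summits, and Rheb and TBC1D7 had none. Of 6 genes of the TOR complexes, rictor (238) had a promoter summit, Lobe had body summits only (highest 940), and Tor, raptor, Sin1 and Lst8 had no IDR summit.

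The highest promoter signals of the list were in the group of amino acid and energy sensing, where 6 of 15 genes had a promoter summit. AMPK, the kinase that senses low energy and inhibits TOR, has a catalytic and 2 further subunits, and the genes of all of them had one. AMPKalpha had 4340 (X, 1375106 to 1375667), at ranks 64, 71 and 58 in replicates 1, 2 and 3, alc had 2934 (ranks 76, 164 and 114) and SNF4Agamma had 1197 (ranks 483, 700 and 545). The alc summit was at an offset of -473 bp from its start and 80 bp from that of CG8788. Sesn, which encodes a sestrin, had 1974 (ranks 171, 203 and 234). Lkb1 (247), the kinase that activates AMPK, and path (184), an amino acid transporter gene, were lower. The Lkb1 summit was also the highest promoter summit of CG9588, and the path summit had no match in replicate 2. Each of the 4 highest exceeded the highest promoter signal of the 8 genes, 327 at InR.

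Of 11 output genes, REPTOR (917), melt (752), Mnt (366), the antagonist of Myc, and RpS6 (202), whose protein S6k phosphorylates, had promoter summits. The RpS6 summit was 3 bp from the start of snoRNA:Or-aca2. Myc (1081) and Atg1 (969), named after their values were seen, had body summits only.

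**Figure D5:**
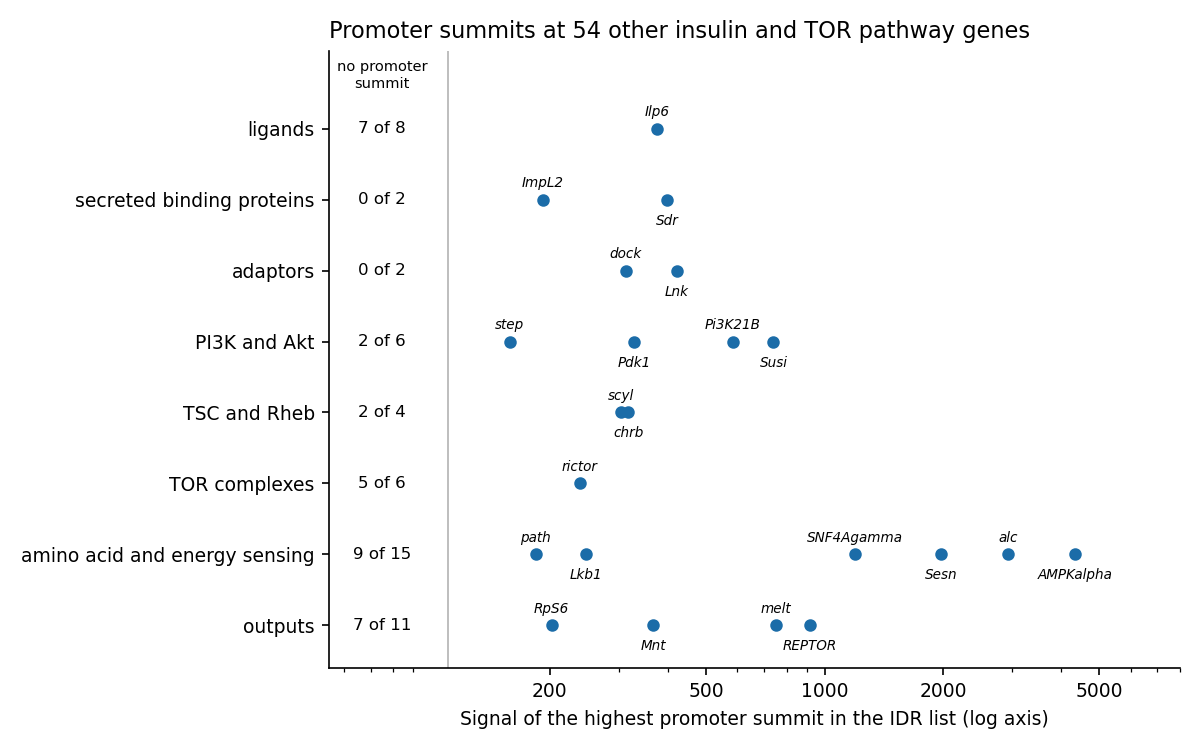
Signal of the highest IDR promoter summit (log axis) at 54 other insulin and TOR pathway genes, 1 point per gene with a summit, by role, with the number of genes without one at left. AMPKalpha, alc, Sesn and SNF4Agamma stand at the high end with signals of 1197 to 4340, and the other 18 lie between 158 and 917.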

How the data were processed

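The members and lists were chosen with earlier results of these data known. Per the deposited text descriptions, the authors called regions on dm6 for each replicate and for the pooled replicates against 1 control alignment and derived the IDR list from these. Neither the aligner nor the peak caller is named in the sources used. The IDR list holds the pooled regions of highest signal, so it shares their values. The deposited signal column was used as the authors' value within each list, and the deposited −log10 q-value column was read but ranked nothing. Replicate summits were matched within 100 bp. Genes and places came from Ensembl release 115 on the Release 6 genome, from which sequences were read. All values are counts, ranks and shares with no test, since there is 1 group. Depth is unknown, so no interval is given. The dm3 lists were not used, for want of a dm3 annotation.

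Named genes are the 8 members, the 3 genes most like the highest member promoter, and, of the 54 further genes (4 matched through other symbols: mTor, B4, TBC1d7 and PRAS40), every gene with an IDR promoter summit and the rest of groups of 8 or fewer. A gene counted in that list is not reported here by name. Sequences are the strongest window of each member with annotated UTRs removed and 3 for contrast. The gene and replicate matching was tested on simulated data. Alternatives were other windows, lists, start sites, matching distances, motif windows and leaving out each replicate. Python 3.11.15, numpy 2.4.6, pandas 2.3.3 and matplotlib 3.10.9 were used.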

Additional observations from a re-analysis of the deposited data

How the results depend on the processing

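Of 42 alternatives, 38 left a count within 1.5 times its value in the report, and 4 did not. In the stronger 50% of the IDR list, 1 of the 8 genes had a promoter summit (InR), not 4, and 1479 protein-coding genes had one, not 2519, since fewer regions were counted. With matching within 50 bp, 12 of 22 summits were matched in all 3 replicates, not 20. With 50 bp on either side of the summit, 4 windows held CACTG, not 10, as they are shorter. A promoter window of 250 bp left out foxo, and canonical starts alone left out InR, which gave 3 genes each. Requiring a match in the other replicates, with each replicate left out in turn, kept 4 of the 8 genes with a promoter summit and 3 with a body summit, 2080 to 2254 protein-coding genes, 17 to 20 of the 54 further genes and 20 to 22 matched summits. Merging summits within 250 or 500 bp, chosen after seeing the data, gave 21 and 19 summits, not 22. No paired analysis was possible because there was 1 group. Depth limits every absence of a region, and it is unknown.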
